A study of Homo sapiens with 10 samples.

Results

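The zinc finger genes towards the end of the long arm of human chromosome 19 were examined in HCT116 cells and in DNMT1 KO cells. The interval is called the 19q13.43 band here for short, and the limits of that band were not checked. The members were all genes on chromosome 19 with a start above 54.5 Mb (hg38) and a symbol beginning with ZNF or ZFP followed by a digit. There were 72 such genes among the 58884 genes of each count table, of which 60 are annotated as protein coding and 12 as long non-coding RNA or pseudogene. Another 225 genes of the same interval were not members. The rule uses position and name.

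HCT116 is a human colorectal carcinoma line. DNMT1 KO was derived from it by deleting 3 exons of DNMT1, which encodes the maintenance DNA methyltransferase. The study describes the cells as a hypomorphic line in which some shortened DNMT1 protein remains. It is a single line, so its libraries are repeat samples of 1 derivative. The labels give no treatment for either group. Polyadenylated RNA was sequenced from 6 HCT116 libraries (replicates 1, 2, 3, 7, 8 and 9) and 4 DNMT1 KO libraries (replicates 1 to 4), with totals of 35418732 to 85991812 and 26700853 to 55732013 counts per library. The labels place them in 4 batches. Batch 1 held replicate 1 of each group, batch 2 held replicates 2 and 3 of each group, batch 3 held, of the libraries used, DNMT1 KO replicate 4, and batch 4 held HCT116 replicates 7, 8 and 9. The study describes the libraries as cultures grown independently, so the p-values measure the spread between cultures of each line.

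Most of the members encode C2H2 zinc finger proteins, in which a row of short zinc-binding fingers reads the DNA sequence. Many of them also carry a KRAB domain, which binds the co-repressor TRIM28. TRIM28 in turn brings the H3K9 methyltransferase SETDB1 and HP1 proteins to the bound DNA, above all at transposable elements. The genes arose by repeated local duplication, so neighbours resemble each other, and their promoters are rich in CpG, the dinucleotide that DNMT1 keeps methylated after replication. Promoters of several of these genes are known to be methylated in tumours.

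The promoters of the 5 members whose RNA differed between the groups, and that of a neighbour with no RNA in either group, are shown first because methylation acts on the CpG sites they hold. Each line gives the 150 bases before the RefSeq start of the gene (assembly GRCh38.p14), 5′ to 3′ on the strand of the gene, with every CG in capitals. The windows lie at chr19:57477567-57477716 (minus strand, ZNF772), chr19:57889038-57889187 (minus strand, ZNF814), chr19:57559864-57560013 (minus strand, ZNF550), chr19:57599735-57599884 (plus strand, ZNF530), chr19:57769526-57769675 (plus strand, ZNF586) and chr19:57527206-57527355 (plus strand, ZNF549). The RefSeq starts lay between 0 and 37 bases from the starts in the count tables.
ZNF772: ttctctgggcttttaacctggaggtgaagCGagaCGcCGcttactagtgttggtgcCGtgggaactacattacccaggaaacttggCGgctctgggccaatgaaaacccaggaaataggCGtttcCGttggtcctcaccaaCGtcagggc
ZNF814: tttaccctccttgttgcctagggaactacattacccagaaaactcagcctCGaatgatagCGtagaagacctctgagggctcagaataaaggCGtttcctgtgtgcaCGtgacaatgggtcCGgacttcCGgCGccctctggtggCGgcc
ZNF550: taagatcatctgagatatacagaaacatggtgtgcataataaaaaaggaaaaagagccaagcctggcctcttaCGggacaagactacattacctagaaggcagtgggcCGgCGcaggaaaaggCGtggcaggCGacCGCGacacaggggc
ZNF530: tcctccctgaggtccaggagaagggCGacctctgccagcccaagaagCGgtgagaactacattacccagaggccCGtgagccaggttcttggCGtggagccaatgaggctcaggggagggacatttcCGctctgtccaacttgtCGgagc
ZNF586: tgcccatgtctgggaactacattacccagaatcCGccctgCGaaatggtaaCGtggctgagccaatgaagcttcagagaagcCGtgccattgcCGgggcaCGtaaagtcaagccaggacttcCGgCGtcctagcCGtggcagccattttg
ZNF549: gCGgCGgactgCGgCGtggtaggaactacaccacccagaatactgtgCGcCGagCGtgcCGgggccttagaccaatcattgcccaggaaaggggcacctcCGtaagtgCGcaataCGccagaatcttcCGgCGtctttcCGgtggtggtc
The printed stretch held 8 CG in ZNF772, 8 in ZNF814, 7 in ZNF550, 6 in ZNF530 and 9 in ZNF586, and 14 in ZNF549, whose transcript was not counted in any library. ZNF549 is a single example and does not stand for all members without RNA. In the same 150 bases, ZNF418 held 7 CG and ZNF773 held 17, and both had very few counts. ZNF749 held 7 and ZNF264 held 16, and both had RNA in each group. The CG count alone therefore did not separate members with RNA from those with little or none.

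The labels were checked first. DNMT1 itself stood at 89.8 to 263 CPM (counts per 1000000 on TMM-scaled library totals) in HCT116 and at 14.1, 19.9, 21.5 and 22.3 CPM in DNMT1 KO replicates 1 to 4, and the groups did not overlap. The epithelial markers EPCAM, KRT8, KRT18 and CDH1 were present in HCT116, with a summed level of 1985 to 4444 CPM. All 4 of them were called lower in DNMT1 KO, where the sum was 421 to 682 CPM. Of the markers of other cell types, the leukocyte gene PTPRC was at 0 in 8 of 10 libraries and at 0.0317 CPM at most. The fibroblast gene COL1A1 averaged 12.5 ± 4.27 CPM in HCT116 and 6.72 ± 5.06 CPM in DNMT1 KO (SD, n = 6 and 4). The endothelial gene PECAM1 rose from 0.0989 ± 0.0973 to 1.23 ± 0.351 CPM (log2 fold change 3.50, SE 0.61, adjusted p = 0.000831, edgeR), and the part of such shifts in the values of the zinc finger genes was not tested.

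Along the chromosome the members fell into 3 expressed stretches separated by 2 silent blocks. A silent block was taken as 4 or more neighbouring members with too few counts to test, a definition made after the values were seen. The first stretch ran from ZNF628-DT to ZNF444 (55.5 to 56.2 Mb) with 10 members, of which 9 were tested. The first silent block ran from ZNF542P to ZNF835 (56.4 to 56.7 Mb) with 13 members, none of which was tested. The second stretch ran from ZNF264 to ZNF417 (57.2 to 57.9 Mb) and was the longest, with 29 members, 26 of them tested. The second silent block held ZNF418, ZNF256, ZNF606 and ZNF135 (57.9 to 58.1 Mb). The third stretch ran from ZNF329 to ZNF446 (58.1 to 58.5 Mb), and all 16 of its members were tested.

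**Figure D1:**
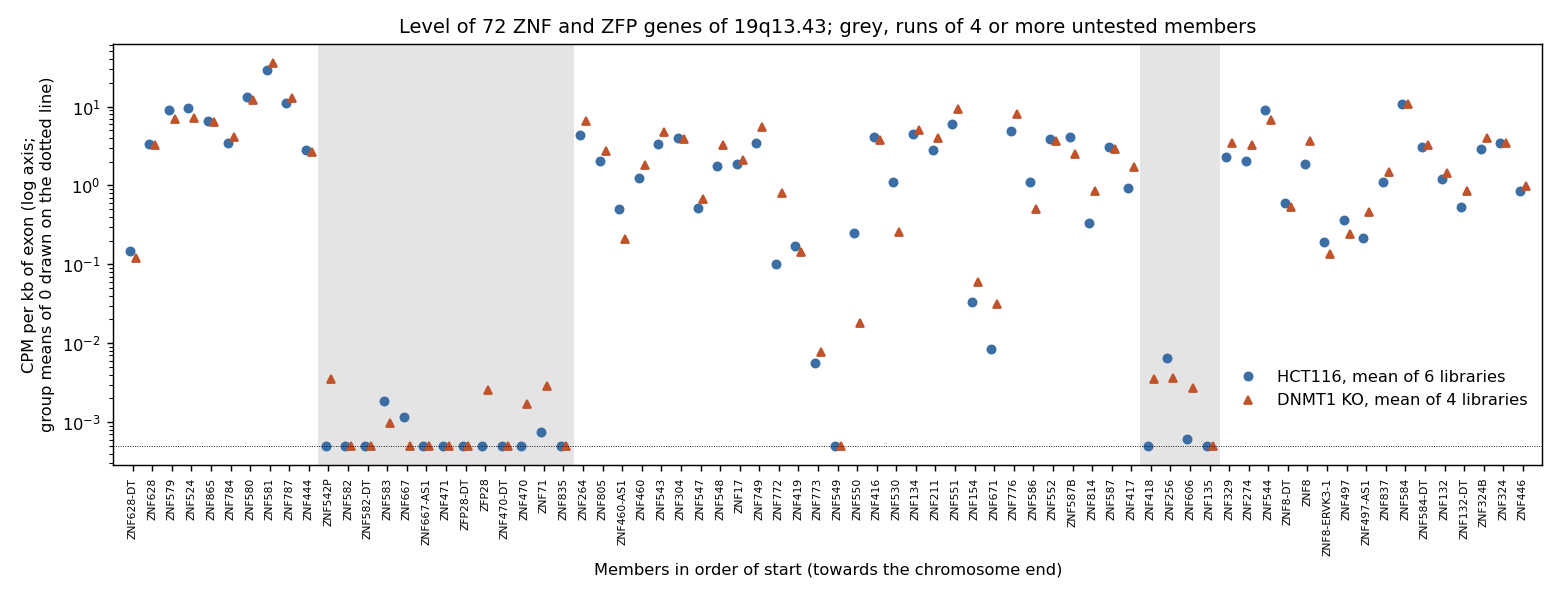
Mean CPM per kb of exon (log axis) of the 72 members in chromosomal order, for HCT116 (circles, 6 libraries) and DNMT1 KO (triangles, 4 libraries), with the 2 silent blocks in grey and group means of 0 drawn on the dotted line. The 13 and 4 members of the grey blocks lie at or near 0 in both groups.

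Over the whole band 51 members passed the filter on low counts and 21 did not. The share of coding members that passed was 75.0% (45 of 60), against 62.4% of coding ZNF and ZFP genes elsewhere on chromosome 19, 81.3% of those on other chromosomes and 67.0% of all coding genes. These shares were not tested against each other. Of the 21 untested members, 15 are coding genes and 6 are long non-coding RNAs or pseudogenes. In bulk RNA, fewer cells with a transcript and less transcript per cell cannot be told apart.

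The first silent block was close to empty in both groups. Its 13 members collected 10 counts in the 6 HCT116 libraries and 14 counts in the 4 DNMT1 KO libraries, and no single library held more than 4 counts for any of them. The coding genes ZNF582, ZNF471 and ZNF835 and the non-coding genes ZNF582-DT, ZNF667-AS1, ZFP28-DT and ZNF470-DT had no count in any of the 10 libraries. A count of 0 allows up to 3 counts over a group, which is 0.00892 CPM in HCT116 and 0.0160 CPM in DNMT1 KO. The remaining members, ZNF542P, ZNF583, ZNF667, ZFP28, ZNF470 and ZNF71, had 2 to 8 counts in all. None of the 12 other genes that start within the block was tested either. Beyond its end lie PEG3 and USP29, known as imprinted genes, and ZIM2, ZIM3 and DUXA. PEG3 had 0 counts in HCT116 and 9 in DNMT1 KO, DUXA had 0 and 2, and ZIM2, USP29 and ZIM3 had none. Of the 15 genes that start between this block and the second stretch, 1 was tested.

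The 4 members of the second silent block behaved likewise, with 8 counts in HCT116 and 10 in DNMT1 KO in all. Of the 9 other genes that start within this block 1 was tested, and it was not called. ZNF135 had no count in any library, ZNF418 had 0 and 4, ZNF256 had 6 and 2, and ZNF606 had 2 and 4 counts in HCT116 and DNMT1 KO. For ZNF418 the lower bound of the 95% counting interval of the ratio of DNMT1 KO to HCT116 was 1.18, while all 4 of its counts came from DNMT1 KO replicate 3. Intervals and floors cover counting error only and treat every count as independent. Among genes with 1 to 10 counts, 64.4 to 70.0% of values were even in 9 libraries and 39.9% in DNMT1 KO replicate 4, so counts may come in pairs of mates, and the intervals are then too narrow.

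A further 3 untested genes lay singly inside the second stretch among expressed neighbours. ZNF549 had no count in any library. ZNF773 had 17 counts in HCT116 and 14 in DNMT1 KO, a ratio of DNMT1 KO to HCT116 of 1.48 (95% counting interval 0.674 to 3.18). ZNF671, a gene whose promoter is known to be methylated in tumours, had 12 and 21 counts, a ratio of 3.14 (1.47 to 6.997). By library ZNF671 read 0, 0, 2, 0, 2 and 8 counts in HCT116 and 0, 8, 8 and 5 counts in DNMT1 KO, so the groups overlapped. When the filter was dropped, 12 of the 21 untested members could be fitted and 0 were called, with 4 at an unadjusted p under 0.05 and a lowest adjusted p of 0.190 (edgeR). The share called in that fit was 9.97% of 35231 genes.

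Next, DNMT1 KO was compared with HCT116 across all genes to ask which members of the band changed with the loss of DNMT1. In the edgeR quasi-likelihood test 13.9% of the 19279 genes tested were called at a Benjamini-Hochberg adjusted p under 0.05 together with a log2 fold change past 1 in size. Of the 51 tested members 5 were called (9.80%), with 3 lower (5.88%, against 6.49% of all genes) and 2 higher (3.92%, against 7.42%). Thus the members were not called more often than genes at large. All 5 lie in the second stretch, at 57.5 to 57.9 Mb, and they are coding genes. That stretch holds 26 of the 51 tested members, and its limits were set after the values were seen. Under some alternative settings ZNF8 or ZNF497 of the third stretch was called as well. Whether the calls gather in the second stretch was not tested. No run of neighbouring called members was found. The tested neighbours on either side of each called member were not called. The same test called 41 lower and 8 higher among 135 tested ZNF and ZFP genes elsewhere on chromosome 19 (36.3%), and 13 lower and 16 higher among 265 on other chromosomes (10.9%). These shares were set side by side without a test of their difference.

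**Figure D2:**
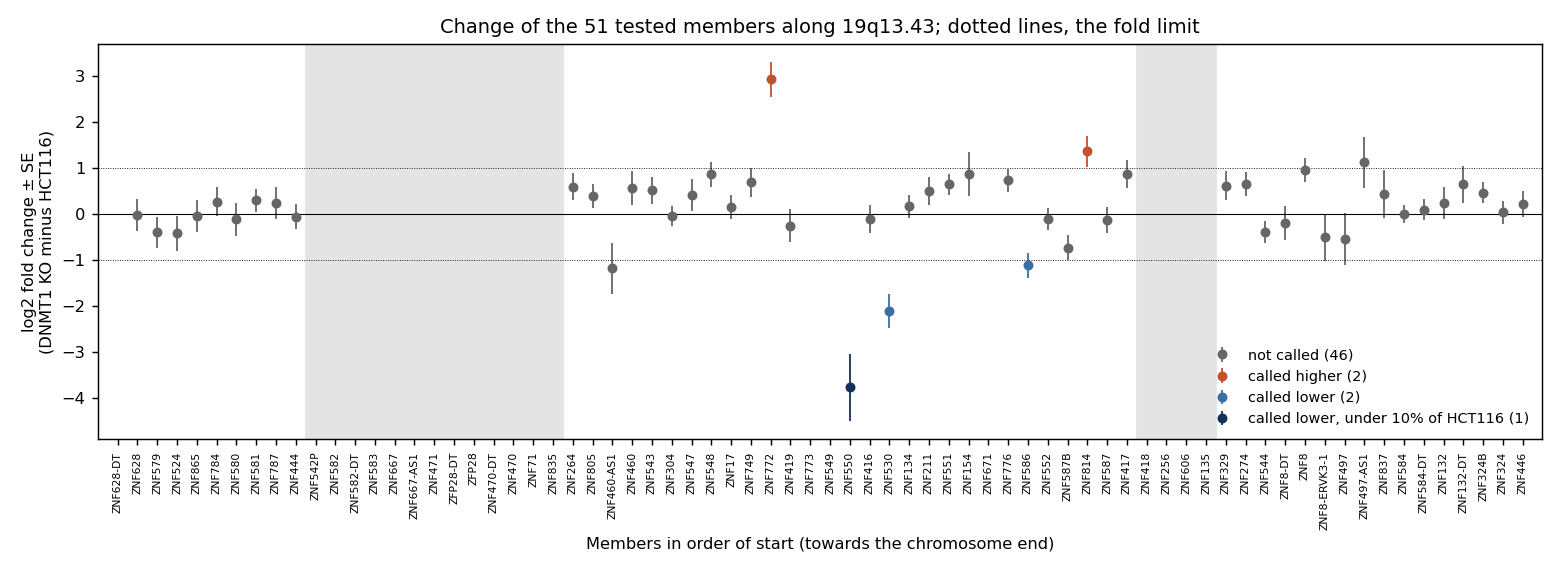
Log2 fold change (DNMT1 KO minus HCT116) with its standard error for the 51 tested members in chromosomal order, with dotted lines at the fold limit of 1 in each direction and the untested blocks in grey. The 5 called members, 2 above and 3 below, lie in the second stretch, among 21 tested neighbours there that were not called.

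ZNF550, a KRAB zinc finger gene, showed the largest decrease among the members and was the one member lost, meaning that DNMT1 KO kept under 10% of its HCT116 level. It lies at chr19:57535257-57559863 on the minus strand. HCT116 replicates 1, 2, 3, 7, 8 and 9 read 0.309, 1.67, 2.35, 1.09, 0.775 and 1.43 CPM, and DNMT1 KO replicates 1 to 4 read 0, 0.0711, 0.127 and 0.174 CPM. Every DNMT1 KO library was below every HCT116 library, although HCT116 replicate 1 came close to them. The mean fell from 1.27 ± 0.716 to 0.0930 ± 0.0748 CPM (SD, n = 6 and 4), or 7.32% of HCT116. The log2 fold change was -3.77 (SE 0.74, adjusted p = 0.00211, edgeR). The level was low throughout, with 423 counts in HCT116 and 17 in DNMT1 KO, and the ratio of HCT116 to DNMT1 KO from these sums was 13.9 (95% counting interval 8.56 to 24.0). ZNF550 shares 473 exonic bases (9.30%) with ZNF549 on the opposite strand, and ZNF549 was at 0 in all libraries.

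ZNF530, another KRAB zinc finger gene 2 places further along, was lowered but not lost. It lies at chr19:57599885-57612722 on the plus strand. The HCT116 libraries read 3.403, 4.85, 4.17, 5.70, 5.93 and 9.64 CPM and the DNMT1 KO libraries 1.01, 1.85, 1.27 and 1.08 CPM. The groups did not overlap, and HCT116 replicate 9 stood above the rest of its group. The mean fell from 5.62 ± 2.19 to 1.30 ± 0.381 CPM, 23.2% of HCT116, with a log2 fold change of -2.10 (SE 0.37, adjusted p = 0.000873, edgeR). None of its exonic bases is shared with another gene, and 0.0419% of its 50-base stretches occur in transcripts of other genes, the lowest ambiguity among the called members.

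ZNF586, also of the KRAB class, showed the smallest called decrease. It lies at chr19:57769655-57819939 on the plus strand. The HCT116 libraries read 4.61, 5.35, 5.64, 5.45, 7.13 and 7.90 CPM and the DNMT1 KO libraries 2.55, 2.33, 3.06 and 3.16 CPM. The groups did not overlap. The mean fell from 6.01 ± 1.24 to 2.78 ± 0.401 CPM, a log2 fold change of -1.12 (SE 0.28, adjusted p = 0.0123, edgeR). This call rests on its setting, since the value was -0.97 (SE 0.32, adjusted p = 0.0757, edgeR) in batches 1 and 2 (batch as a term) and -1.06 (adjusted p = 0.0526, edgeR) without DNMT1 KO replicate 1.

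ZNF772, a KRAB zinc finger gene at chr19:57466663-57477570 on the minus strand, showed the largest increase. The HCT116 libraries read 0.309, 0.383, 0.401, 0.752, 0.852 and 1.02 CPM and the DNMT1 KO libraries 5.18, 4.67, 4.90 and 4.59 CPM. The DNMT1 KO libraries lay within a narrow range, far above every HCT116 library. The mean rose from 0.620 ± 0.294 to 4.84 ± 0.264 CPM (log2 fold change 2.93, SE 0.38, adjusted p = 5.87e-05, edgeR), a fold of 7.65. With all 6 libraries HCT116 held 12.8% of the DNMT1 KO level, above the limit of 10% used here to call a gene switched on, and no member met that limit. This rests on batch 4. HCT116 replicates 1 to 3 held 7.54% of the DNMT1 KO level, and without batch 4 ZNF772 met the limit, with a log2 fold change of 3.71 (SE 0.37, adjusted p = 6.85e-05, edgeR), a fold of 13.1. Within HCT116, the batch 4 libraries read 0.752 to 1.02 CPM and those of batches 1 and 2 read 0.309 to 0.401 CPM (log2 difference 1.24, adjusted p = 0.162, edgeR), in the direction of DNMT1 KO but far below it.

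ZNF814 rose in the same stretch, near its end, and its value is less certain than the others. It lies at chr19:57848731-57889074 on the minus strand. The HCT116 libraries read 3.74, 3.88, 6.15, 4.02, 2.73 and 6.24 CPM and the DNMT1 KO libraries 8.21, 9.17, 19.8 and 8.72 CPM. The groups did not overlap, and DNMT1 KO replicate 3 was more than double the other 3 libraries of its group. The mean rose from 4.46 ± 1.42 to 11.5 ± 5.57 CPM (log2 fold change 1.36, SE 0.33, adjusted p = 0.0101, edgeR). Without DNMT1 KO replicate 3 the log2 fold change was 0.99 (adjusted p = 0.0552, edgeR) and the call was lost. ZNF814 shares 2443 exonic bases with ZNF587 on the opposite strand, 23.0% of its exons lie in other genes, and 13.9% of its 50-base stretches occur elsewhere, mostly in ZNF417. The study names no strand option for the counting and no option for reads that overlap more than 1 gene. Whether reads in the bases shared by ZNF814 and ZNF587 were given to either gene or left out was not checked. ZNF587 read 22.9 ± 7.04 CPM in HCT116 and 21.02 ± 6.25 CPM in DNMT1 KO (log2 fold change -0.12, SE 0.29, adjusted p = 0.825, edgeR).

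**Figure D3:**
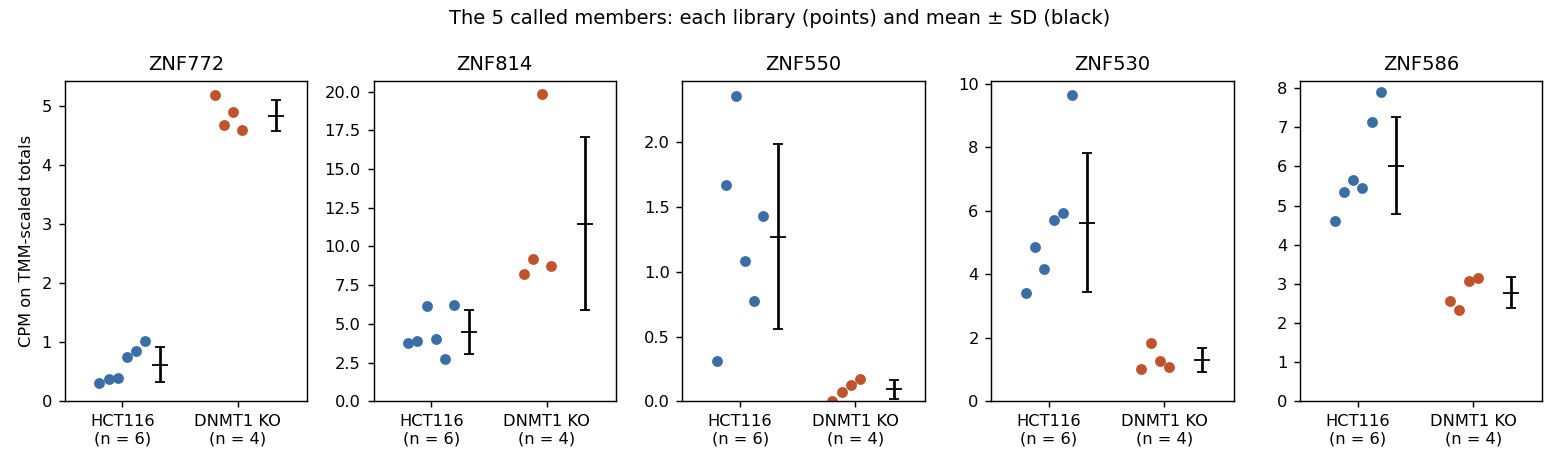
CPM on TMM-scaled totals of the 5 called members in each library (points, in replicate order from left to right) with the mean and SD in black, for 6 HCT116 and 4 DNMT1 KO libraries. The groups are apart in all 5 panels and come closest in CPM in ZNF550, at 0.174 and 0.309. In ZNF814, 3 of 4 DNMT1 KO libraries sit between 8.21 and 9.17 CPM and replicate 3 at 19.8 CPM.

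Since batch 4 held HCT116 alone and batch 3 DNMT1 KO alone, the called members were also fitted in batches 1 and 2, adding batch as a term. ZNF772 was at 3.74 (SE 0.39, adjusted p = 0.000345), ZNF814 at 1.40 (SE 0.38, adjusted p = 0.0379), ZNF550 at -4.44 (SE 0.64, adjusted p = 0.00206) and ZNF530 at -1.60 (SE 0.36, adjusted p = 0.0164, all edgeR). These 4 members were called in this fit, as was ZNF417 at 1.10 (adjusted p = 0.0415, edgeR). Of the 4, ZNF814 lost its call in the same 6 libraries without a term (1.44, adjusted p = 0.0590, edgeR). In batch 2 alone ZNF814 (1.54, adjusted p = 0.121) and ZNF530 (-1.53, adjusted p = 0.102, both edgeR) were not called.

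The other tested members were counted as kept. Of these 46 members 44 had a log2 fold change within 1 in either direction. The non-coding genes ZNF460-AS1 (-1.18, SE 0.55, adjusted p = 0.183) and ZNF497-AS1 (1.12, SE 0.56, adjusted p = 0.209, both edgeR) were beyond 1 but did not pass the test. None of the 6 tested non-coding members and 5 of the 45 tested coding members were called, beside 13.9% of all genes. With 6 genes, coding and non-coding members cannot be compared. Counting the 5 called members, 7 members (13.7%) had an adjusted p under 0.05 at any fold, against 16.1% of all genes. The groups did not overlap in 7 members (13.7%, against 15.2% of all genes). DNMT1 KO lay above in 4 of them, ZNF772, ZNF814, ZNF8 and ZNF324B (8.40% of all genes), and below in 3, ZNF550, ZNF530 and ZNF586 (6.79% of all genes).

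ZNF8, ZNF548 and ZNF417 were chosen after their values were seen because they lay close to the limits. ZNF8 read 13.9 to 24.7 CPM in HCT116 (median 15.6) and 27.8, 28.0, 51.5 and 25.8 CPM in DNMT1 KO, without overlap. Its log2 fold change was 0.96 (SE 0.26, adjusted p = 0.0196, edgeR), just under the fold limit. ZNF548 read 7.41 to 15.7 CPM (median 10.2) and 19.7, 17.9, 27.9 and 14.5 CPM, with a log2 fold change of 0.86 (SE 0.27, adjusted p = 0.0444, edgeR). ZNF417 read 2.85 to 6.83 CPM (median 4.61) and 6.31, 9.31, 13.2 and 7.16 CPM, with a log2 fold change of 0.88 (SE 0.30, adjusted p = 0.0658, edgeR). With batch as a term over all libraries ZNF417 was at 1.10 (adjusted p = 0.0255, edgeR) and was called, as it was in batches 1 and 2. In all 3 genes DNMT1 KO replicate 3 was the highest library of its group, as it was in ZNF814. ZNF417 is the member with the most sequence in common with other genes, 32.98% of its 50-base stretches, mostly with ZNF587, so its counts are uncertain.

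The 6 uncalled members of highest level per kb of exon were ZNF581, ZNF580, ZNF787, ZNF524 and ZNF579 in the first stretch and ZNF584 in the third, with means over all libraries of 31.4, 12.9, 11.8, 8.64, 8.27 and 10.8 CPM per kb. In the order of levels the range over all libraries of each of them overlapped that of its next neighbour. These ranges do not compare genes within a library. ZNF581 averaged 47.0 ± 14.9 CPM in HCT116 (31.6 to 75.2, median 44.7) and 74.5, 50.6, 48.7 and 58.4 CPM in DNMT1 KO (log2 fold change 0.31, SE 0.25, adjusted p = 0.479, edgeR). ZNF584 was the steadiest of the 6, at 39.5 ± 5.00 CPM in HCT116 and 39.5 ± 3.97 CPM in DNMT1 KO. Its log2 fold change was 0.00 (SE 0.20, adjusted p = 0.995, edgeR), and its libraries spanned 32.5 to 45.7 CPM. In ZNF580 (-0.11, SE 0.36), ZNF787 (0.24, SE 0.35), ZNF524 (-0.42, SE 0.38) and ZNF579 (-0.39, SE 0.34) the log2 fold changes were not called. In batches 1 and 2 with a batch term ZNF579 was at -0.80 (SE 0.23, adjusted p = 0.0493, edgeR), still within the fold limit. ZNF580 and ZNF581 share 407 exonic bases on the same strand. Level per kb was taken over all exonic bases, also those shared with other genes. The shared part was 24.9% in ZNF581, 18.9% in ZNF524 and 15.6% in ZNF580, and ZNF787, ZNF579 and ZNF584 had none. Its effect on the order of levels was not tested.

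The level of the members varied between libraries of 1 group, and differently in the 3 stretches. In the first stretch HCT116 replicate 1 was the highest of the 6 HCT116 libraries in 8 of 9 tested members, and DNMT1 KO replicate 1 the highest of its group in 8 of 9. Both are the batch 1 libraries. In the second stretch HCT116 replicate 1 was the lowest of its group in 15 of 26 members, HCT116 replicate 3 the highest in 16 and DNMT1 KO replicate 3 the highest in 16. The exons of the first stretch are GC-rich, with a median of 64.8% GC (58.6 to 71.1%), whereas those of the second stretch have 45.4% (40.3 to 49.8%) and those of the third 54.0% (48.3 to 70.1%). The part of GC content in these library differences was not tested. Per library, the median deviation of the members from their own mean ranged from -0.81 in HCT116 replicate 9 to 0.88 in HCT116 replicate 1 in the first stretch, and from -0.45 in HCT116 replicate 1 to 0.49 in DNMT1 KO replicate 3 in the second, on the log2(CPM + 0.5) scale. Over all genes tested it stayed between -0.05 and 0.02.

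**Figure D4:**
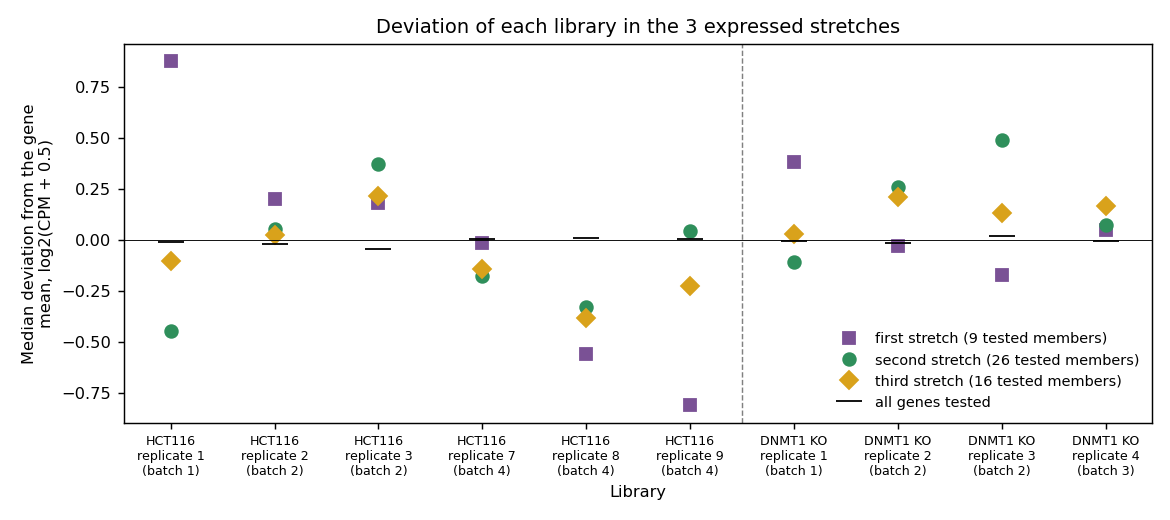
Median over the tested members of each stretch of a library's deviation from the gene mean, log2(CPM + 0.5), for the 10 libraries with their batch, with black dashes for all genes tested. The first stretch (squares) is highest in HCT116 replicate 1 at 0.88 and lowest in HCT116 replicate 9 at -0.81, while the second (circles) is lowest in HCT116 replicate 1 at -0.45.

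As a description of the members that passed the filter, the median log2 fold change was -0.05 over the 9 tested members of the first stretch, 0.40 over the 26 of the second and 0.24 over the 16 of the third, against -0.07 over all genes tested. With batch as a term the medians were -0.30, 0.30 and -0.03, both over all libraries and in batches 1 and 2. Without DNMT1 KO replicate 3 they were 0.08, 0.19 and 0.31, and without HCT116 replicate 1 they were 0.24, 0.33 and 0.40, so single libraries changed both the values and the order of the stretches. With library totals alone in place of TMM factors, the median of all genes was 0.14 and the stretches stood at 0.16, 0.61 and 0.44.

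As a background, HCT116 libraries of batch 4 were compared with those of batches 1 and 2 by the same test. Of 18656 genes 8.03% were called. Of 50 tested members 3 were called, all lower in batch 4 (4.94% of all genes were called lower), namely ZNF865 of the first stretch (log2 difference -1.33, adjusted p = 0.0254) and ZNF497 (-2.30, adjusted p = 0.0129) and ZNF837 (-2.16, adjusted p = 0.0131, all edgeR) of the third. None of the 5 members called between DNMT1 KO and HCT116 was among them. ZNF497 read 2.44, 1.94 and 2.62 CPM in HCT116 replicates 1 to 3, 0.543, 0.356 and 0.535 CPM in replicates 7 to 9, and 0.809 to 1.17 CPM in DNMT1 KO. Its comparison of DNMT1 KO with HCT116 therefore depends on which HCT116 libraries are used, and it was called lower once batch 4 was left out.

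The promoters were described next, in 300-base windows from RefSeq that begin 250 bases before the start. A window was found for 63 of the 72 members, and the one listed first was used. Its start lay up to 10578 bases from the start in the count tables (ZNF587B). The ratio of observed to expected CpG was above 0.6 in 57 of them (90.5%), against 48.8% of all 35116 promoter windows, whose median was 14 CpG. Those windows belong to 27305 genes, so some genes count there more than once, while each member counts by a single window. The 16 untested members with a window had a median of 27.5 CpG (8 to 42) and a median ratio of 0.86, the 42 kept members 23 CpG (11 to 40) and 0.84, and the 5 called members 16 CpG (12 to 20) and 0.73. By stretch, the medians were 27.5 CpG in the first stretch, 29 in the first silent block, 20 in the second stretch, 29 in the second silent block and 29.5 in the third stretch. The called members were thus at the lower side of CpG content, as was the whole stretch that holds them. No test was run on these features, and methylation itself was not analysed here.

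**Figure D5:**
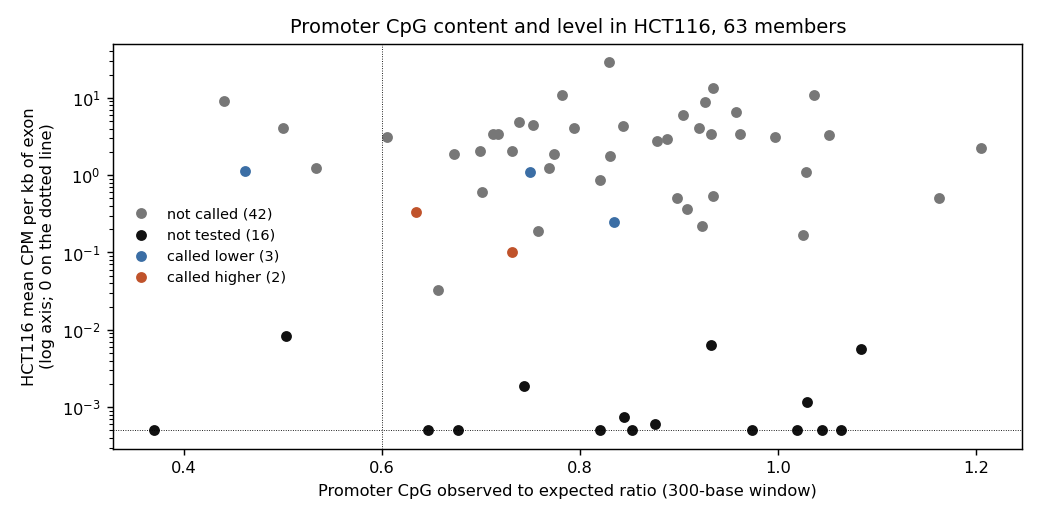
HCT116 mean CPM per kb of exon (log axis, 0 on the lower dotted line) against the ratio of observed to expected CpG in the promoter window, for the 63 members with a window, by call. Untested members (black, 16) spread over the same range of ratios as members that were not called (grey, 42), and 4 of the 5 called members lie above 0.6.

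A short sequence recurs in the promoters of the 5 called members printed above, and the printed ZNF549 promoter lacks it. The 11 letters ACTACATTACC are the longest run common to the windows of the 5 called members, so their presence there was fixed by the choice. Searched on both strands, they occur in the windows of 12 of the 63 members (19.05%), against 18 of 27305 genes with a window (0.0659%). They are in 11 of 26 members of the second stretch and in ZNF418 of the second silent block, and in no window of the first stretch, the first silent block or the third stretch. These windows hold 13 copies, since ZNF749 has a pair. All 13 read in the direction of the gene and begin 68 to 146 bases before its start. The 5 called members hold it, as do the kept members ZNF154, ZNF17, ZNF416, ZNF587, ZNF587B and ZNF749, and ZNF418, which was not tested. Apart from the called members, from which the letters were taken, 7 of 58 members with a window hold them (12.07%), 6 of these among 21 in the second stretch, against 6 of 27242 genes that are not members (0.0220%). The shorter form ACTACATT, which contains the first 8 letters of the longer one, occurs in 21 of 63 members (33.3%), in 24 of 187 ZNF and ZFP genes elsewhere on chromosome 19 (12.8%), in 10 of 264 on other chromosomes (3.79%) and in 1.23% of all genes. A match is a description of the letters and not of a bound factor.

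Neighbouring members also share transcribed sequence, which bears on how their reads were counted. Exonic bases shared with another gene were found in 42 members, over 20% of the exons in 13, and 12 members had over 5% of their 50-base stretches in transcripts of other genes. These 12 include ZNF417, ZNF587, ZNF814, ZNF552 and ZNF587B, which follow each other at the end of the second stretch, and the pair ZNF324 and ZNF324B in the third. By this measure their values are less certain than those of ZNF530, ZNF772 or ZNF586. In these at most 1.79% of the 50-base stretches occur in genes that do not overlap them. ZNF772 and ZNF586 do share 6.99% and 6.33% of their exonic bases with overlapping genes.

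Of 7 members whose promoters are widely described as methylated in tumours, 5 were not tested and 0 were called. ZNF135, ZNF471 and ZNF582 had no count in any library, and ZNF667 had 2 counts, both in HCT116 replicate 1. ZNF671 had the 12 and 21 counts given above. ZNF132 averaged 4.23 ± 2.03 CPM in HCT116 and read 5.15, 4.96, 4.17 and 5.80 CPM in DNMT1 KO (log2 fold change 0.25, SE 0.35, adjusted p = 0.699, edgeR). ZNF154 averaged 0.188 ± 0.0726 CPM in HCT116 and read 0.253, 0.178, 0.555 and 0.382 CPM in DNMT1 KO (log2 fold change 0.87, SE 0.48, adjusted p = 0.272, edgeR), and the groups overlapped in both.

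Finally, the genes through which KRAB zinc finger proteins act were read from the same test. Of 17 such genes, all tested, 1 was called higher and 2 lower, with a median log2 fold change of -0.04, against 7.42% higher and 6.49% lower over all genes. One of the lower genes is DNMT1, whose loss is the genotype itself. TRIM28, the co-repressor that the KRAB domain binds, averaged 952 ± 441 CPM in HCT116 and 924 ± 264 CPM in DNMT1 KO (log2 fold change -0.04, SE 0.34, adjusted p = 0.950). SETDB1, the H3K9 methyltransferase, was at 39.4 ± 7.05 and 43.0 ± 9.51 CPM (0.12, SE 0.22, adjusted p = 0.768). CBX5, which encodes the HP1 protein HP1α, rose from 318 ± 82.8 to 675 ± 59.7 CPM (1.09, SE 0.24, adjusted p = 0.00483). The other HP1 genes of the list went in opposite directions and were not called. CBX1 was at 0.31 (SE 0.33, adjusted p = 0.598) and CBX3 at -0.80 (SE 0.48, adjusted p = 0.311, both edgeR). HDAC1, a histone deacetylase gene, fell from 251 ± 53.9 to 101 ± 19.3 CPM (-1.31, SE 0.24, adjusted p = 0.00133), and DNMT1, the targeted gene, fell too (-2.97, SE 0.33, adjusted p = 1.74e-05). ATF7IP, the partner of SETDB1 (0.83, SE 0.23, adjusted p = 0.0244), and MORC2 of the HUSH pathway (0.82, SE 0.25, adjusted p = 0.0339, all edgeR) were under the fold limit. HDAC2 was lower but within the fold limit, at -0.61 (SE 0.20, adjusted p = 0.0502, edgeR). ZNF274, a member of the band that is known to bind zinc finger genes together with TRIM28 and SETDB1, read 11.2 to 23.4 CPM in HCT116 (median 16.2) and 24.7, 27.2, 37.9 and 18.4 CPM in DNMT1 KO. Its log2 fold change was 0.66 (SE 0.26, adjusted p = 0.113, edgeR), and the groups overlapped.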

How the data were processed

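The authors trimmed the reads with TrimGalore 0.4.1, aligned them to hg38 with bowtie2 (an aligner that leaves out reads spanning splice junctions), discarded alignments of low mapping quality and counted reads on exons with featureCounts. A strand setting is not given in the sources used here. The authors deposited 1 table of unnormalised counts for each library. Depth was 26700853 to 85991812 counts per library. A further 3 count columns, of HCT116 replicates with no sample in the list, were not used. Tests used edgeR 4.0.16 in R 4.3.3 (TMM factors, filterByExpr with defaults, glmQLFit and glmQLFTest, two-sided) on all genes. Benjamini-Hochberg adjustment was over the 19279 genes tested. The code was also run on simulated counts drawn from the fitted dispersions, without batch effects or counts in pairs. That check does not cover these features of the data. Standard errors came from the quasi-likelihood F statistic. Calls required an adjusted p under 0.05 together with a log2 fold change past 1 in size.

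A member was lost if called lower with a DNMT1 KO mean under 10% of HCT116 and an HCT116 mean of at least 0.5 CPM, switched on in the reverse case, and kept if tested and not called. Named were called members with at least 1 CPM in the higher group, the 6 uncalled members of highest CPM per kb and 2 gene lists. Members and lists were chosen with earlier results of these data known. Of the members, 53 have the same start and end in GENCODE release 44, and all 1917 chromosome 19 promoter windows equal hg38. Counting intervals are 95% exact binomial. Alternatives were other size factors, other filters, DESeq2 1.42.0, batch terms and subsets, the replicate number as a block, halved counts and each library left out. The main test did not treat same-numbered libraries as pairs. For replicate numbers 1 to 3 the deviations of same-numbered libraries correlated at 0.547, -0.266 and 0.375. These mixed values do not settle whether the numbers mark pairs.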

Additional observations from a re-analysis of the deposited data

Results flagged for a closer look

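In 17 named members, or 34 groups of libraries, 5 groups had a library apart from the rest by Dixon's gap test (95% critical value), and chance alone flags about 1 group in 20. ZNF814 (19.8 CPM) and ZNF8 (51.5 CPM) stood apart in DNMT1 KO replicate 3. ZNF581 (75.2 CPM), ZNF580 (75.4 CPM) and ZNF524 (29.4 CPM) stood apart in HCT116 replicate 1. The last 3 are genes of the GC-rich first stretch and ZNF580 and ZNF581 share exonic bases, so these flags are not independent of each other.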

How the results depend on the processing

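The calls of ZNF772 and ZNF550 held under every alternative that could be fitted, 22 and 21 of them, with log2 fold changes of 2.84 to 3.74 and -4.47 to -3.38. ZNF550 had too few counts for the filter of at least 10 counts in every library. Leaving out each library in turn gave 2 to 3 members called lower and 1 to 4 called higher, with 4 without HCT116 replicate 3, when ZNF8 and ZNF548 joined, and 1 without DNMT1 KO replicate 3, when ZNF814 was lost. In batch 2 alone 1 member was called lower (ZNF550) and 1 higher (ZNF772), with ZNF530 at -1.53 (adjusted p = 0.102) and ZNF814 at 1.54 (adjusted p = 0.121, both edgeR). With library totals alone 5 were called higher, ZNF8, ZNF548 and ZNF417 besides the 2 above, and in replicates 1 to 3 without the number as a term 1 was, ZNF772, with ZNF814 at 1.44 (adjusted p = 0.0590, edgeR). With batch as a term, over all libraries or in batches 1 and 2, 3 were called higher, ZNF417 joining the 2. ZNF586 lost its call in 8 of 22 alternatives. With the replicate number as a block, 2 members were called lower and 2 higher, against 2 and 1 in the same libraries without it, and ZNF586 was at -0.98 (adjusted p = 0.105, edgeR).

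Of the members that were not called, a few changed sign around 0. ZNF787 was at -0.177 with a batch term over all libraries, -0.175 with it over batches 1 and 2, -0.0136 in batch 2 alone, -0.190 without HCT116 batch 4, -0.171 with the replicate block and -0.235 in replicates 1 to 3 without it. ZNF132 was at -0.0190, -0.0173, -0.0395 (without HCT116 batch 4), -0.0136 and -0.113 in the same fits, batch 2 alone excepted. ZNF580 was at 0.107 with library totals alone, at 0.00172 in batch 2 alone and between -0.254 and 0.302 with a library left out. ZNF584 was at -0.0307 with no filter and between -0.0667 and 0.0878 with a library left out. The cause of these shifts was not tested. Without HCT116 batch 4, a choice made after seeing the data, ZNF772 met the limit for a switched-on gene. Between HCT116 batches the count of members called was 3 under each alternative. Depth limits the silent genes to an upper bound of 3 counts per group, and halving the counts left 2 members higher and 3 lower.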
